A study of Mus musculus with 7 samples.

Results

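The 9 genes described here write, maintain or remove methyl groups on cytosine in DNA. They were taken by name from the rows of the expression table: Dnmt1 and Uhrf1 (maintenance), Dnmt3a, Dnmt3b and Dnmt3l (new methylation), Tet1, Tet2 and Tet3 (oxidation of the methyl group) and Tdg (removal of the oxidised base). All 9 were among the 30590 rows of the table, and all 9 were among the 21813 genes that were above 0 in at least 1 library and were tested. The rule names genes and uses no measured value.

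In mammals DNA methylation sits mostly on the cytosine of CG pairs (CpG). DNMT1 copies it onto the new strand after replication, guided there by UHRF1, which binds half-methylated DNA, while DNMT3A and DNMT3B place it on unmethylated sites and DNMT3L stimulates them without being an active enzyme itself. TET enzymes oxidise the methyl group stepwise, and the glycosylase TDG cuts out the most oxidised forms, which base excision repair then replaces with plain cytosine. As mouse embryonic stem cells leave the naive state, methylation of their genome is known to rise.

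RNA from mouse embryonic stem cells and the embryoid bodies grown from them was measured by bulk RNA-seq of polyadenylated RNA in 7 libraries. All libraries came from the line named Bry-GFP, a name used for cells with GFP placed at the Brachyury gene, with no other genotype given in the labels. The 2 libraries of day 0 are stem cells kept on mouse embryonic fibroblast feeders in serum with LIF. The 2 libraries of day 2 are embryoid bodies formed during 48 h in serum-free suspension from 75000 cells per mL, without feeders. The 2 libraries of day 4 followed a further 48 h with Noggin (150 ng/mL), Wnt3a (25 ng/mL) and Activin A (9 ng/mL), given to induce primitive streak. The only library of day 6 followed 48 h with basic FGF (10 ng/mL) after those factors were removed. The labels call the replicates biological, and each group is a mixture of whatever cells the culture held. Every step changes the time and the medium together, so the 2 cannot be told apart.

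Levels are log2 of 1 plus scaled reads, the deposited values changed only in the base of the logarithm. From the spacing of common low values in the deposited, normalized data, the libraries were estimated to hold roughly 2790000 to 5790000 reads. These are not counted depths. By the same spacing, 3 reads correspond to a level of 1.45 to 2.30, depending on the library. Lists of marker genes placed the libraries along the course between days 0 and 4. All 12 naive pluripotency genes fell (10.4% of all genes did) and 6 of 7 primed epiblast genes rose (11.3%). The 12 feeder fibroblast genes stood at a summed level of 14.52 and 14.74 on day 0, then 10.73 and 10.26 on day 2, then 10.53 and 10.27 on day 4 and 11.16 on day 6. All 12 fell between days 0 and 2, where 6.2% of all genes did. From day 2 to day 4, 5 of the 12 fell further (2.13% of all genes fell) and 1, Vim, rose by 1.80 (1.45% rose). None of the 12 passed limma's adjusted p of 0.05 from day 4 to day 6, and 4 had an unadjusted p under 0.05. On later days S100a4 is listed at 0 in the first library of day 4 and in that of day 6, and the collagen genes Col1a1 and Col1a2 stayed above 0. The part of the feeders in any day 0 level below was not tested. Gapdh, which nearly every cell uses, is listed at 0 in the day 6 library, so a single very low value of that library can be a failed estimate.

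Of the 9 genes, 8 changed over the course. The exception was Tdg. A gene was called when the adjusted p of limma's moderated test, Benjamini-Hochberg over all 21813 genes, was under 0.05. The joint test over days called 28.6% of all genes. From day 0 to day 2, 6 of the 9 were called, where 12% of all genes were. Of these, 4 rose (5.76% of all genes did) and 2 fell (6.2%). From day 2 to day 4, 4 of the 9 were called and all 4 fell, beside 3.59% of all genes called, 1.45% higher and 2.13% lower. From day 4 to day 6, 4 were called and all 4 fell, beside 4.46% of all genes, 1.27% higher and 3.18% lower. That split of all genes, 278 higher and 694 lower, became 440 and 383 without robust moderation and 450 and 509 with a pseudocount of 10. Across days 0 to 4, the widest span with 2 libraries on both sides, 8 were called, 5 higher and 3 lower, where 21.7% of all genes were called, 11.3% higher and 10.4% lower. The median change of the 9 genes was 0.53 from day 0 to day 2, against 0.05 for all tested genes, -0.54 from day 2 to day 4 against 0, and -0.69 from day 4 to day 6 against 0.

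These calls rest on few libraries. With 1 library left out at a time, 0 to 2 of the 9 genes were called from day 0 to day 2 and 2 to 7 from day 0 to day 4. From day 2 to day 4 none of the 9, and no gene of the table, was called by limma in these 6 fits, although 6 to 8 of the 9 and 3511 to 5139 of all genes had an unadjusted p under 0.05. From day 4 to day 6, Dnmt3b alone was called, in 2 of the 6 fits. Without the second library of day 0, or without the first of day 4, the joint test called 0 of the 9, with 6 and 8 at an unadjusted p under 0.05. The 11800 genes whose mean level reached log2 of 11 had a median change of 0.14 from day 0 to day 2, so the levels were also shifted by each library's median deviation. That left 5 of the 9 called from day 0 to day 2, and of all genes 945 higher and 1579 lower, against 1257 and 1352 unshifted.

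**Figure D1:**
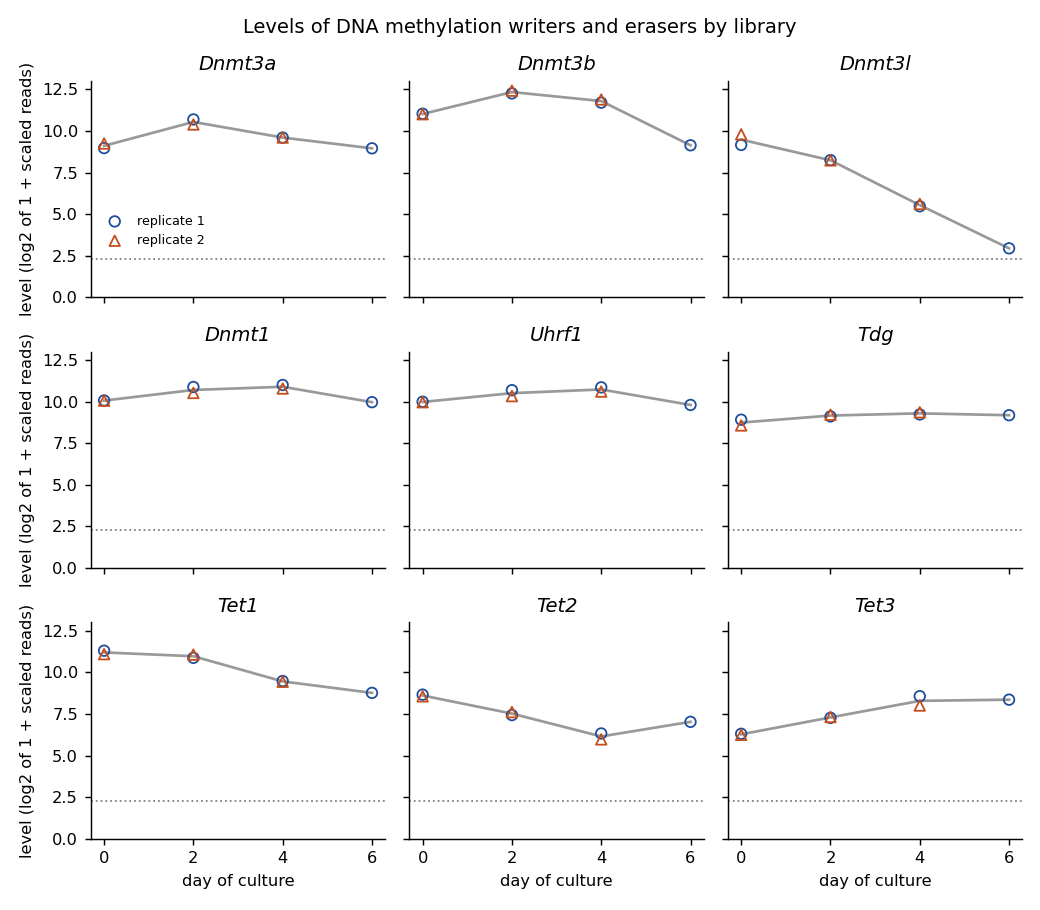
Level of each of the 9 genes by day of culture, in log2 of 1 plus scaled reads. Circles are replicate 1 and triangles replicate 2, the grey line joins the means of the days (day 6 is 1 library), and the dotted line is the highest level that 3 reads give in a library, 2.30. Dnmt3l falls towards that line, Dnmt3b peaks on day 2, and Tet3 climbs while Tet1 and Tet2 lie lower on day 4 than on day 0.

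**Figure D2:**
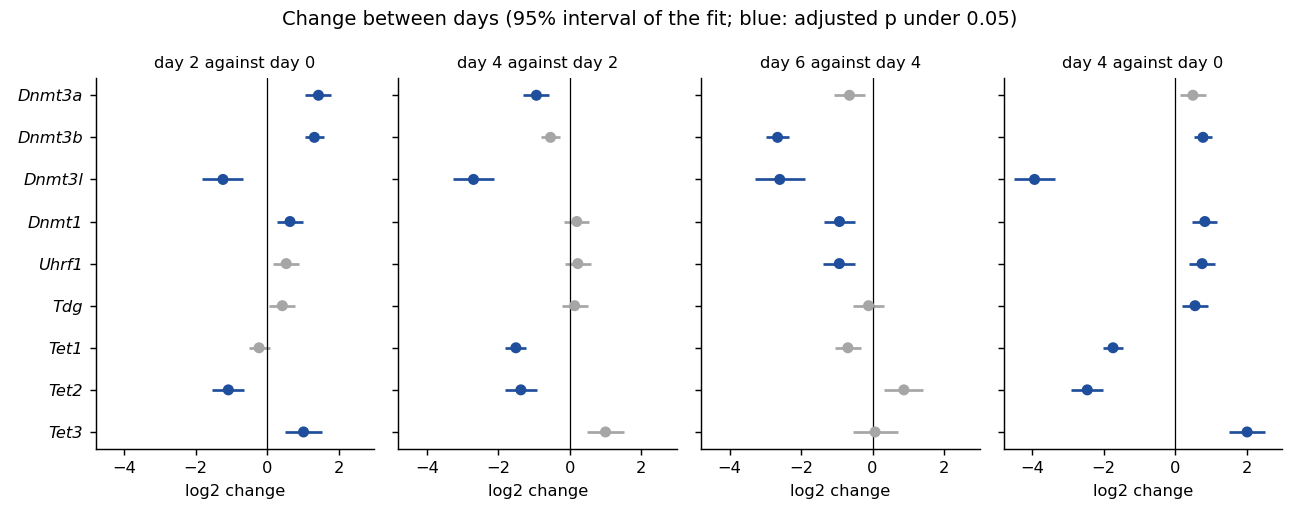
Log2 change of each of the 9 genes between days with its 95% interval from the moderated fit. Blue genes passed an adjusted p of 0.05 and grey ones did not. From day 2 to day 4 and from day 4 to day 6 all blue points lie left of 0.

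The maintenance pair moved together in every library. DNMT1 is the maintenance methyltransferase, and its level was 10.07 and 10.06 on day 0, then 10.88 and 10.52 on day 2, then 11.002 and 10.79 on day 4 and 9.97 on day 6. UHRF1 brings DNMT1 to half-methylated DNA, and its level was 10.00 and 9.97 on day 0, then 10.69 and 10.33 on day 2, then 10.86 and 10.61 on day 4 and 9.80 on day 6. Both genes were higher in all 4 libraries of days 2 and 4 than in the 2 of day 0, days 2 and 4 overlapped, and day 6 lay below all 6 others. In such bulk samples, fewer cells of a type and less RNA per cell cannot be told apart. Between days 0 and 4, Dnmt1 rose by 0.83 on the log2 scale (SE 0.15, adjusted p = 0.00984) and Uhrf1 by 0.75 (SE 0.15, adjusted p = 0.0161), or 1.78-fold and 1.68-fold. From day 0 to day 2 the rise of Dnmt1 was 0.64 (SE 0.15, adjusted p = 0.0386), which became 0.52 with an adjusted p of 0.077 once levels were shifted by the median deviation. The same change of Uhrf1 was 0.53 (SE 0.15) and did not pass (adjusted p = 0.073). From day 4 to day 6, Dnmt1 fell by 0.93 (SE 0.18, adjusted p = 0.0457) and Uhrf1 fell by 0.93 (SE 0.19, adjusted p = 0.0483). Neither fall passed after a correction for GC content, where the changes were -0.48 and -0.52 with adjusted p of 0.0751 and 0.0723. Leaving out 1 library at a time, the change from day 0 to day 4 stayed between 0.72 and 0.94 for Dnmt1 and between 0.63 and 0.88 for Uhrf1, and passed in 2 of 6 fits for each, those without a day 2 library. The Dnmt1 rise to day 2 and both falls to day 6 passed in 0 of 6.

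The difference between the 2 genes barely moved while both rose and fell. Dnmt1 minus Uhrf1 was 0.07 to 0.19 in all 7 libraries, on the log2 scale and with no correction for length. Across the 7 libraries the levels had a Pearson r of 0.9954, and Uhrf1 was the gene most like Dnmt1 among the 11175 named genes whose mean level reached log2 of 11. Prmt7 (0.9942) followed. The genes most like Uhrf1 were Dnmt1, the DNA-damage enzyme gene Parp1 (0.9947) and the replicative helicase gene Mcm7 (0.9916). These r values describe 7 points that share libraries and days. Replication genes were measured beside them: 4 of 14 rose from day 0 to day 2 (5.76% of all genes did) and 4 of 14 fell from day 4 to day 6 (3.18%). Their summed level was 13.61 and 13.51 on day 0, then 13.94 and 13.96 on day 4 and 13.48 on day 6. The part of cell cycling in the levels of Dnmt1 and Uhrf1 was not tested. Of 8 proliferation genes, 6 rose from day 0 to day 4 (11.3% of all genes did). None passed from day 4 to day 6 (2 at limma's unadjusted p under 0.05), with summed levels of 13.67 and 13.61 and then 13.82.

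The promoters of this pair are shown because the genes had so similar a course. Each sequence is a RefSeq window on GRCm38.p6, from 250 bases before to 50 after a start, written 5′ to 3′ on the strand of its gene, with every CG pair in capitals. For all 9 genes a window was found. The starts in those of Tet1 and Tet3, not shown, lie 11794 and 14714 bases from the start of the transcript used for length. The median over 32851 windows is 7 CG pairs, and 94.6% of windows hold at least 1.
Dnmt1, chr9:20952930-20953229, minus strand: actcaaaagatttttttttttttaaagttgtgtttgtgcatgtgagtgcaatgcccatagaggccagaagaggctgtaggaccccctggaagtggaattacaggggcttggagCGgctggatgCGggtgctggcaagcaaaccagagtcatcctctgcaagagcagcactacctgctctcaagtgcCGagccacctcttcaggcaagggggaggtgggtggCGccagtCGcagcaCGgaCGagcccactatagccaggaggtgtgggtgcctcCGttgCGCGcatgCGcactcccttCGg
Uhrf1, chr17:56303087-56303386, plus strand: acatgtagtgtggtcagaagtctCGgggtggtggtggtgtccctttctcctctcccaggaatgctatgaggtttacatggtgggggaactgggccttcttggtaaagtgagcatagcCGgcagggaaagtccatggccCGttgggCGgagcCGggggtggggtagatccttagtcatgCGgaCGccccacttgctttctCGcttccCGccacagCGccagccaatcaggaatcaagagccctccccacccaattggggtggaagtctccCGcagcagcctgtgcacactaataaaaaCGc
Both windows hold 12 CG pairs, a number that 39.6% of all windows reach. RefSeq lists 3 starts for Dnmt1, with 2 to 33 pairs, and 2 for Uhrf1, with 12 to 33. Which start the cells used was not analysed here. On the GENCODE annotation of GRCm38, Dnmt1 is a protein-coding gene at chr9:20907209-20959888 on the minus strand, and Uhrf1 one at chr17:56303321-56323486 on the plus strand.

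The 3 genes of new methylation took separate courses. Dnmt3b and Dnmt3a peaked on day 2, while Dnmt3l fell at every step. Dnmt3b, the enzyme with the higher level per length of the 2, stood at 11.03 and 11.01 on day 0, then 12.26 and 12.42 on day 2, then 11.70 and 11.89 on day 4 and 9.14 on day 6. No 2 days overlapped, and day 6 was the lowest. Dnmt3b rose 2.49-fold from day 0 to day 2 (log2 1.32, SE 0.11, adjusted p = 0.00157). Its change from day 2 to day 4 was -0.54 (SE 0.11) and missed the threshold (adjusted p = 0.0509, and 0.0198 with the GC correction), while day 4 remained above day 0 (log2 0.78, SE 0.11, adjusted p = 0.00415). From day 4 to day 6 it fell by 2.66 on the log2 scale (SE 0.13, adjusted p = 0.00367), which is 6.31-fold. Without 1 library, the rise to day 2 was 1.24 to 1.40 and passed in 3 of 6 fits (without either day 2 library or the second of day 4), the difference of day 4 from day 0 was 0.68 to 0.87, and the change to day 6 was -2.75 to -2.56. The last 2 passed only in the 2 fits without a day 2 library.

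Dnmt3a is the other active enzyme. It stood at 8.97 and 9.25 on day 0, then 10.69 and 10.39 on day 2, then 9.60 in both libraries of day 4 and 8.96 on day 6. The 2 libraries of day 2 were above all others, and the day 6 library was the lowest of all. It rose 2.70-fold from day 0 to day 2 (log2 1.43, SE 0.15, adjusted p = 0.00327) and fell by 0.94 from day 2 to day 4 (SE 0.15, adjusted p = 0.03). Its changes from day 4 to day 6 (-0.65, adjusted p = 0.0968) and from day 0 to day 4 (0.49, adjusted p = 0.0622) did not pass. Without 1 library the rise was 1.28 to 1.58 and passed in 1 of 6 fits, that without the second day 2 library, and the change to day 4 was -1.09 to -0.79 and passed in 0.

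Dnmt3l, the cofactor without enzyme activity, had the widest range of the 9 genes, 6.85 on the log2 scale. Its level was 9.16 and 9.80 on day 0, then 8.25 and 8.23 on day 2, then 5.47 and 5.61 on day 4 and 2.95 on day 6. In scaled reads that is 571 and 888 on day 0, then 302.8 and 299.8 on day 2, then 43.4 and 47.9 on day 4 and 6.71 on day 6. Every later day lay below every earlier one, and the day 6 value was near the level of 3 reads in that library, 2.14. Dnmt3l fell by 1.24 from day 0 to day 2 (SE 0.24, adjusted p = 0.0222), fell by 2.70 from day 2 to day 4 (SE 0.24, adjusted p = 0.00861) and fell by 2.60 from day 4 to day 6 (SE 0.29, adjusted p = 0.0187). With a pseudocount of 10 in place of 1, the last change was -1.73. The drop over days 0 to 4 was 15.3-fold (log2 -3.94, SE 0.24, adjusted p = 0.000323). Without 1 library this change was -4.25 to -3.62 and passed in 5 of 6 fits, the exception being that without the first day 4 library (-3.87, adjusted p = 0.0503). The single steps passed in 1 of 6 (days 0 to 2, without the first day 0 library) and 0 of 6 (the later ones), with changes of -1.56 to -0.92, -2.77 to -2.63 and -2.67 to -2.53.

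Dnmt3b and Dnmt3l are shown side by side because one rose and the other fell from day 0 to day 2. The 1 window of Dnmt3b and 1 of the 3 of Dnmt3l follow, with CG pairs again in capitals.
Dnmt3b, chr2:153649199-153649498, plus strand: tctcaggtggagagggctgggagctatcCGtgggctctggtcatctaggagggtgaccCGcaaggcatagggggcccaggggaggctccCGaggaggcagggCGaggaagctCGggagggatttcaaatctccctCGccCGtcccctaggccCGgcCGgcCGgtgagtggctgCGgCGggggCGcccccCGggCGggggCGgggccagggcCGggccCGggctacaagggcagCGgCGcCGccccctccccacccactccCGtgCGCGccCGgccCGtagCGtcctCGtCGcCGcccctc
Dnmt3l, chr10:78042037-78042336, plus strand: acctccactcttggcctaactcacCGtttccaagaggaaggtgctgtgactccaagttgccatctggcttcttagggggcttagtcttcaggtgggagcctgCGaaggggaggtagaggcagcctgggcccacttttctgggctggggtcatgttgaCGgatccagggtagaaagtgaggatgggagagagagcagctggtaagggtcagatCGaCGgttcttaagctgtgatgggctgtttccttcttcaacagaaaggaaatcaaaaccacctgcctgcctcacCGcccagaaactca
The Dnmt3b window holds 30 CG pairs, a number that 11.7% of all windows reach. The Dnmt3l window holds 6, which 56.4% reach, and its other starts have 3 to 6. Methylation of these windows was not analysed here. Dnmt3b lies at chr2:153649450-153687730 and Dnmt3l at chr10:78041947-78063622, both on the plus strand, as is Dnmt3a at chr12:3806007-3914443. Dnmt3l is overlapped on the other strand by Aire, which was at 0 in every library. Dnmt3a and Dnmt3b are overlapped by antisense genes that have no row in the expression table. The sources used here do not state how the counting used strand, and reads of those partners may be included.

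The gap between the 2 active enzymes was smallest in the day 6 library. Dnmt3b minus Dnmt3a was 2.06 and 1.76 on day 0, then 1.56 and 2.03 on day 2, then 2.10 and 2.29 on day 4 and 0.18 on day 6, on the log2 scale without regard to length. The 6 libraries up to day 4 span 1.56 to 2.29 with the days overlapping, and the day 6 library lies far outside. Per kb of transcript Dnmt3b was still above Dnmt3a on day 6, at 7.02 against 5.68 (log2 scaled reads per kb). Dnmt3l minus Dnmt3b went from -1.87 and -1.21 on day 0 to -4.01 and -4.19 on day 2, then -6.23 and -6.28 on day 4 and -6.19 on day 6. As shares of the 3 genes' scaled reads per kb of transcript, Dnmt3l made up 36.9% and 47.5% on day 0, then 11.3% and 10.5% on day 2 and under 3% after that (2.72%, 2.67% and 1.99%). Dnmt3b made up 57.0% and 46.4% on day 0 and 88.1% and 89.2% on day 4. Dnmt3a reached 27.7% on day 6, against 6.08% to 11.6% in the 6 earlier libraries. With the length of all exons in place of 1 transcript these shares moved, to 30.3% and 40.4% for Dnmt3l on day 0 and to 21.0% for Dnmt3a on day 6, and the order of the days for each gene was as described.

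The oxidising enzymes moved in opposite directions. Tet1 and Tet2 fell and Tet3 rose between days 0 and 4. Tet1, the TET gene known for its high level in stem cells, stood at 11.30 and 11.10 on day 0, then 10.87 and 11.07 on day 2, then 9.48 and 9.44 on day 4 and 8.77 on day 6. Days 0 and 2 were set apart by a narrow margin, and both lay well above days 4 and 6. The change from day 0 to day 2 was -0.23 (adjusted p = 0.303), with a 95% interval of -0.52 to 0.06. From day 2 to day 4 Tet1 fell by 1.51 (SE 0.12, adjusted p = 0.00816), or 2.85-fold, and from day 0 to day 4 it fell by 1.74 (SE 0.12, adjusted p = 0.000426). The change to day 6, -0.69, did not pass (adjusted p = 0.0547), and did with the GC correction (-1.12, adjusted p = 0.00437). Without 1 library the fall over days 0 to 4 was -1.84 to -1.64 and passed in 5 of 6 fits, the exception being that without the first day 4 library (adjusted p = 0.0504). The change over days 2 to 4 was -1.61 to -1.42 and passed in 0.

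Tet2 had fallen by day 2. It stood at 8.66 and 8.56 on day 0, then 7.43 and 7.61 on day 2, then 6.33 and 5.97 on day 4 and 7.03 on day 6. No 2 days overlapped, day 4 was the lowest, and the day 6 library lay between days 2 and 4. Tet2 fell by 1.09 from day 0 to day 2 (SE 0.19, adjusted p = 0.0153) and fell by 1.37 from day 2 to day 4 (SE 0.19, adjusted p = 0.0196), in all 5.50-fold over days 0 to 4 (log2 -2.46, SE 0.19, adjusted p = 0.000534). Its change to day 6 was 0.88 (SE 0.23) and did not pass (adjusted p = 0.0792). Without 1 library the change over days 0 to 4 was -2.64 to -2.28 and passed in 5 of 6 fits, all but that without the second day 0 library (adjusted p = 0.0514), and the single steps passed in 0. Whether Tet1 and Tet2 differed in their change to day 2 was not tested.

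Tet3 went the other way. It stood at 6.31 and 6.25 on day 0, then 7.27 and 7.32 on day 2, then 8.57 and 8.01 on day 4 and 8.36 on day 6. Day 0 was lowest, day 2 lay between, and days 4 and 6 overlapped. Tet3 rose 2.02-fold from day 0 to day 2 (log2 1.02, SE 0.21, adjusted p = 0.0293) and 4.03-fold from day 0 to day 4 (log2 2.01, SE 0.21, adjusted p = 0.00159). The step from day 2 to day 4, 1.00, did not pass (adjusted p = 0.0607), and that to day 6 was 0.07 with a 95% interval of -0.56 to 0.70 (adjusted p = 0.968). Without 1 library the rise over days 0 to 4 was 1.73 to 2.29 and passed in 4 of 6 fits, not in those without the first or second day 0 library (adjusted p = 0.0847 and 0.0985). The rise to day 2 was 0.98 to 1.05 and passed in 1, without the second day 4 library. Tet1 lies at chr10:62804570-62908996, Tet2 at chr3:133463679-133545139 and Tet3 at chr6:83362373-83459084, all protein-coding and on the minus strand.

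The balance of the 3 TET genes moved towards Tet3 up to day 4. Tet1 minus Tet3 was 4.99 and 4.85 on day 0, then 3.61 and 3.75 on day 2, then 0.91 and 1.43 on day 4 and 0.41 on day 6, again on the log2 scale without regard to length. Tet2 minus Tet3 changed sign, from 2.35 and 2.31 on day 0 and 0.16 and 0.30 on day 2 to -2.24 and -2.04 on day 4 and -1.33 on day 6. Per kb of transcript, Tet3 made up 5.66% and 6.12% of the scaled reads of the 3 genes on day 0, then 14.7% and 13.5% on day 2, then 52.3% and 44.02% on day 4 and 55.4% on day 6. Tet1 made up 75.4% and 73.9% on day 0 and 30.4% on day 6. Which of Tet1 and Tet3 was the larger on days 4 and 6 depends on the length used, which for Tet3 is 5944 bases for the transcript and 16695 for all exons, and for Tet1 14369 and 15457. With the length of all exons Tet1 made up 62.7% and 70.2% on day 4 and 50.8% on day 6, and Tet3 30.9%, 24.1% and 35.4%. The order of Tet2 and Tet3 on day 2 depends on the length as well. Per kb of transcript Tet2 made up 10.7% and 10.8% there, below Tet3. With the length of all exons it made up 7.2% in both libraries, above Tet3 at 6.52% and 5.95%. Under either length Tet3 gained share at each of the first 2 steps.

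**Figure D3:**
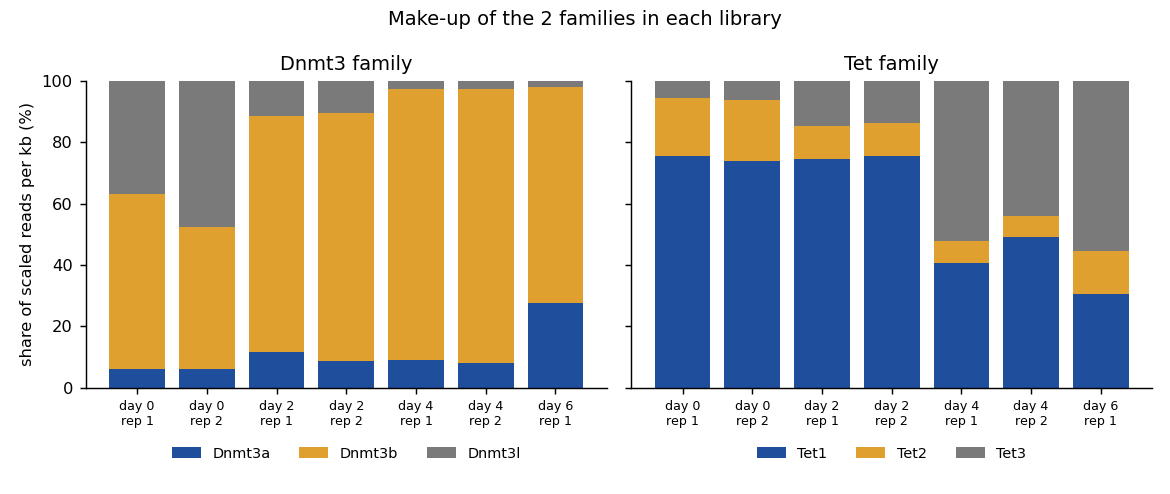
Share of each gene in the scaled reads per kb of its family, in percent, with 1 bar per library, per kb of 1 annotated transcript. Dnmt3l shrinks from 36.9% and 47.5% on day 0 to 1.99% on day 6, and Tet3 grows from 5.66% and 6.12% to 55.4%. The share of Tet3 on day 6 is 35.4% with the length of all exons.

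Tdg had the narrowest range of the 9 genes, 0.79 on the log2 scale. The glycosylase that removes the oxidised bases stood at 8.92 and 8.57 on day 0, then 9.11 and 9.22 on day 2, then 9.23 and 9.36 on day 4 and 9.19 on day 6. The 2 libraries of day 0 were the lowest, and the other 5 lay within 9.11 to 9.36. The joint test did not call it (adjusted p = 0.0995). Taken alone, day 4 was higher than day 0 by 0.55 (SE 0.15, adjusted p = 0.0445, 1.47-fold), which passed in 0 of 6 fits without 1 library and not with levels shifted by the median deviation (0.47, adjusted p = 0.0595). The interval of its change from day 2 to day 4 was -0.23 to 0.50 and that from day 4 to day 6 was -0.56 to 0.33. Tdg, protein-coding at chr10:82629828-82650799 on the plus strand, shares its locus with Glt8d2 on the other strand, whose levels were 1.36 to 3.91, and the annotation holds a pseudogene copy of Tdg, as it does of Dnmt3a and Dnmt3l, which could take or give reads.

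Set beside each other per kb of transcript, the order of the 9 genes changed between the first and the last day. On day 0, Dnmt3b was highest at 8.91 (log2 scaled reads per kb, mean of 2 libraries), with Dnmt3l at 8.61, Uhrf1 at 8.14, Dnmt1 at 7.64, Tet1 at 7.35, Tdg at 6.93, Dnmt3a at 5.83, Tet2 at 5.41 and Tet3 at 3.69. Dnmt3b (8.92 and 8.89) and Dnmt3l (8.29 and 8.93) overlapped there, and no other neighbours did. On day 6, Uhrf1 was highest at 7.96, then Dnmt1 at 7.54, Tdg at 7.38, Dnmt3b at 7.02, Tet3 at 5.78, Dnmt3a at 5.68, Tet1 at 4.92, Tet2 at 3.82 and Dnmt3l at 1.88. Day 6 has 1 library, so its neighbours in this order cannot be set against a spread. Dnmt3b kept rank 1 on days 0, 2 and 4 and Uhrf1 rank 1 on day 6 under both lengths. The summed level of the 9 genes was 13.10 and 13.08 on day 0, then 13.68 and 13.66 on day 2, then 13.26 and 13.23 on day 4 and 12.11 on day 6, summed over scaled reads without regard to length. Dnmt3b minus Tet1 was below 0 on day 0 (-0.27 and -0.09) and above it in all later libraries (1.38 and 1.36, then 2.22 and 2.46, then 0.37), without regard to length. Per kb, Dnmt3b was above Tet1 on every day under both lengths. On day 0 it stood at 8.91 against 7.35 per kb of transcript, so the change of sign is not seen once length is used.

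Other genes of the pathway were taken from 7 lists. Of all genes, 12% were called to day 2, 3.59% to day 4, 4.46% to day 6 and 21.7% over days 0 to 4. Among 9 partners of maintenance, Cdca7, which works with the remodeller HELLS, rose by 0.93 from day 0 to day 2, the only one called, where 12% of all genes were. Hells fell by 1.00 and Usp7, a deubiquitinase of UHRF1 and DNMT1, fell by 0.59 from day 2 to day 4. From day 4 to day 6 Usp7 alone of the 9 was called, at -5.28, a value that rests on a level of 5.08 in the day 6 library against 10.32 and 10.41 on day 4. Over days 0 to 4, 5 of the 9 were called, beside 21.7% of all genes. Cdca7 rose by 1.09, Uhrf2, a relative of Uhrf1, by 0.91 and the deacetylase gene Hdac2 by 0.60, while Hells fell by 0.64 and Usp7 fell by 0.53. The list's median changes at the 3 steps were 0.32, 0.24 and -0.55, beside 0.05, 0 and 0 for all tested genes. Among 12 genes that guide methylation or guard sites from or for it, 2 rose and 1 fell to day 2, 0 rose and 2 fell to day 4, and 0 rose and 2 fell to day 6, with medians of 0.25, -0.23 and -0.20. Over days 0 to 4, 2 rose (Kdm2b by 1.09 and Ehmt1 by 0.73) and 2 fell. Zfp57, which keeps imprinted sites methylated, fell by 0.98 to day 2 and fell by 1.16 to day 4, a change of -2.14 over both steps. Kdm2b, which binds unmethylated CpG islands, rose by 1.22 to day 2 and fell by 1.21 to day 6. Trim28, the partner of ZFP57, fell by 1.40 to day 6. Prdm14, known for holding down Dnmt3b and Dnmt3l in naive cells, changed by -1.90 between days 0 and 4 (adjusted p = 0.0137) and by -0.18 from day 0 to day 2, which did not pass.

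Few genes of the reader and base excision lists were called at single steps. The shares of all genes called were 12%, 3.59% and 4.46% at the 3 steps and 21.7% over days 0 to 4. Of 8 genes listed as readers of methylated CpG, Zbtb4 fell by 2.98 to day 2 and none passed to day 4 (2 at limma's unadjusted p under 0.05). Mbd3 fell by 2.15 to day 6. Whether each of the 8 binds methylated CpG was not analysed here. Over days 0 to 4, Zbtb4 (-2.34), Zbtb38 (-1.44) and Mbd2 (-0.96) fell. Of 16 base excision and demethylation partners, Neil3, a glycosylase, rose by 2.01 and Cxxc4, whose protein binds TET2, rose by 1.70 to day 2. Gadd45a fell by 1.80 to day 4 and Parp1 fell by 0.88 to day 6, and none of the 16 rose at either step, with medians over the list of 0.30, 0.16 and 0.13. Between days 0 and 4, 4 rose (Cxxc4 by 2.69, Neil3 by 2.34, Cxxc5 by 1.08 and Parp1 by 0.70) and Gadd45a fell by 1.30. Of 10 genes that supply the methyl donor, 1 rose and 1 fell to day 2, 1 fell to day 4 (Mat2a, which makes S-adenosylmethionine, at -0.86) and 2 fell to day 6 (Gldc at -1.35 and Mthfd1 at -1.21). Over days 0 to 4, Gldc rose by 0.60, and Mat2a (-0.89), Shmt2 (-0.66) and Mtap (-0.58) fell. Of 7 genes around 2-oxoglutarate, the TET cosubstrate, Idh1 rose by 1.25 and Idh2 by 0.75 to day 2, limma called none to day 4 (3 at an unadjusted p under 0.05), and to day 6 Idh1 rose by 0.92 while Phgdh, of serine synthesis, fell by 1.40. Between days 0 and 4 both rose, by 1.53 and 1.51, and no other gene of that list was called.

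**Figure D4:**
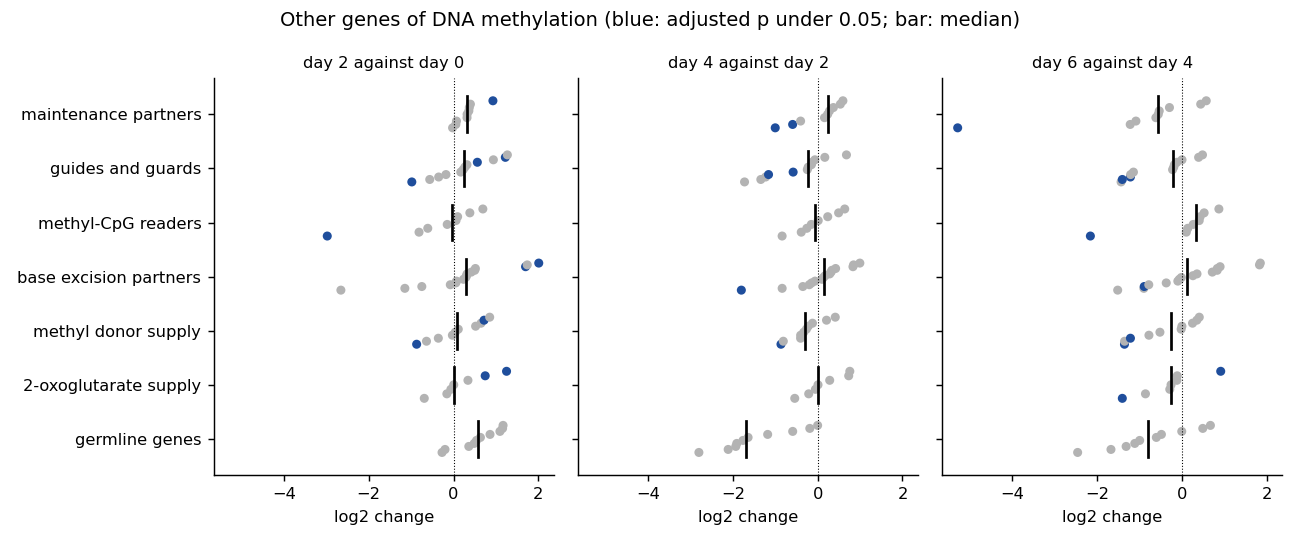
Log2 change of each gene of 7 lists around DNA methylation at the 3 successive steps, with 1 point per gene, blue where the adjusted p was under 0.05, and the list's median as a bar. Between 0 and 2 genes of a list pass in each direction at a step, and the lowest point, Usp7 at -5.28 on day 6, rests on 1 library.

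Germline genes that promoter methylation is known to keep silent were read as the last list. Of 10, limma called none at any single step (2, 5 and 3 had an unadjusted p under 0.05), and the medians were 0.59 to day 2, -1.70 to day 4 and -0.80 to day 6. At an adjusted p under 0.05, limma called 2 of them over days 0 to 4, where 21.7% of all genes were called, 10.4% lower. Stk31 fell by 1.57 (adjusted p = 0.0443) and Ddx4 fell by 1.55 (adjusted p = 0.0426). Ddx4 stood at 6.19 and 5.90 on day 0, then 6.09 and 6.72 on day 2, then 3.98 and 5.02 on day 4 and 3.51 on day 6, so that days 0 and 2 overlapped and both lay above days 4 and 6. DNA methylation at these genes was not analysed here.

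The other members were also placed by the genes whose levels were most like theirs over the 7 libraries, as a description of points that share libraries, depth and days. Dnmt3l was closest to Nckap1l (r = 0.9984), Hmces (0.9969) and Gid8 (0.9967), and Tet1 to Orc1 (0.9949), Ppm1j (0.9946) and Gab1 (0.9932). Tet2 was closest to Exoc6b (0.9966), Rbpj (0.995) and Olfr613 (0.9917), and Tet3 to Cacfd1 (0.9978), Zfp395 (0.9967) and Ubn1 (0.9965). Dnmt3b (Mfsd10, 0.9884, Mmp25, 0.9879, and Rbpms2, 0.9862) and Dnmt3a (Tpst1, 0.9743, Liph, 0.9678, and Sap30l, 0.9671) had lower highest values. Among the 9 genes themselves, Tet1 and Dnmt3l had an r of 0.973, Tet3 had -0.903 with Dnmt3l, -0.891 with Tet1 and -0.91 with Tet2, and Dnmt3a and Dnmt3b had 0.79.

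Marker lists moved at the same steps. Of all genes, 5.76% rose and 6.2% fell at the first step, 1.45% and 2.13% at the second, and 1.27% and 3.18% at the last. From day 0 to day 4, 11.3% of all genes rose and 10.4% fell. At the first step, where Dnmt1, Dnmt3a, Dnmt3b and Tet3 rose and Dnmt3l and Tet2 fell, 8 of 12 naive genes fell, 5 of 7 primed epiblast and 5 of 10 neural progenitor genes rose, and the naive list's summed level went from 12.96 and 12.78 to 11.79 and 11.62. At the second, where Dnmt3a, Dnmt3l, Tet1 and Tet2 fell, 9 of 12 naive genes fell and their summed level reached 10.52 and 10.53, while 4 of 10 neural progenitor, 2 of 7 definitive endoderm and 1 of 8 primitive streak genes rose. Over days 0 to 4, 9 of 10 neural progenitor, 4 of 7 definitive endoderm and 4 of 8 primitive streak genes rose and none of these fell. At the last, where Dnmt1, Uhrf1, Dnmt3b and Dnmt3l fell, 4 of 6 core pluripotency genes fell, from a summed level of 12.58 and 12.68 to 12.01, 2 of 8 primitive streak genes fell, and limma called none of the 10 neural progenitor genes (2 at an unadjusted p under 0.05). The part of cell type shares in the changes of the 9 genes was not tested.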

How the data were processed

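Polyadenylated RNA was sequenced from stranded mRNA libraries, per the labels' protocols. The deposited table holds natural log values of 1 plus scaled reads, a unit inferred from the values and not stated by the authors. The ratio of the steps from 8 and 4 reads, which should be 2, was 1.89 to 2.08 for a natural log, 1.66 to 1.83 for base 2 and 3.67 to 4.40 for base 10. Quantile normalization had been applied: at the 9896 highest ranks the sorted columns differ by at most 0.01. The submitters' processing notes name the build GRCm38, while aligner, counting tool and strand setting were not given in the sources used here. Of the 7 value columns 0 were unmapped, and 1, spelled with a letter O for a zero, was taken as day 0 replicate 2. The 103 rows of foreign sequence and 8674 genes at 0 in every library were left out, and so were genes at 0 in every library of a fit with fewer libraries. Replicates of days 0, 2 and 4 had r of 0.975, 0.946 and 0.96 and shared at most 0.127% of values.

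Values were divided by the natural log of 2 and tested with limma 3.58.1 in R 4.3.3 (one mean per day over 7 libraries, a trend of variance with level, robust moderation, 3 residual degrees of freedom) and Benjamini-Hochberg adjustment over 21813 genes. This keeps 1 as the pseudocount, so fold changes understate those of low genes. The single library of day 6 was assumed to vary like the others. The fit was also run on simulated levels with known changes planted on day 2, and only day 2 against day 0 was checked. That run does not bear on the single library of day 6. All 9 genes were named, with up to 4 of the most changed called genes of each pathway list per comparison and the 3 most similar genes per member, leaving out predicted genes, and 2 genes so chosen are not reported here; Prdm14, Ddx4 and Stk31 also follow that rule. The change of Prdm14 to day 2 and the level of Gapdh were named after their values were seen. The members and lists were chosen with earlier results of these data known. Alternatives were a pseudocount of 10, a filter on mean level, other scalings, no robust moderation, no variance trend, a replicate block, a GC correction, days 0, 2 and 4 alone, and leaving out each library. The shift by median deviation was chosen after seeing the data. Sequences came from RefSeq, coordinates and lengths from GENCODE.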

Additional observations from a re-analysis of the deposited data

How the results depend on the processing

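Over the 7 libraries, the counts of all genes and of the 9 genes called were 2609 and 6 from day 0 to day 2, 782 and 4 from day 2 to day 4, 972 and 4 from day 4 to day 6, 4731 and 8 from day 0 to day 4, and 6232 and 8 in the joint test. Leaving out 1 library gave 0 to 691 and 0 to 2, 0 to 0 and 0 to 0, 0 to 295 and 0 to 1, 163 to 4152 and 2 to 7, and 0 to 4181 and 0 to 8, with 1 residual degree of freedom fewer. The lowest counts of the first comparison and of days 0 to 4 came without the first day 4 library. The filter on mean level gave 1422 genes from day 2 to day 4, and 2200 genes and 7 of the 9 from day 4 to day 6. Without robust moderation, day 2 to day 4 had 172 genes and 2 of the 9, and day 4 to day 6 had 2 of the 9. Without the variance trend there were 1419 genes and 2 of the 9 from day 0 to day 2, 168 and 1 from day 2 to day 4, 27 and 0 from day 4 to day 6 (6 of the 9 had an unadjusted p under 0.05), 4 of the 9 from day 0 to day 4, and 3728 genes in the joint test. The GC correction gave 1516 genes from day 2 to day 4, and 1550 with the replicate block. Where a setting did not change which genes or libraries entered, the cause was not tested.

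The column names share a tag across days for each replicate number, and the day 6 library carries that of replicate 1. What the tag stands for is not stated in the sources used here. The correlations of the replicates' deviations were -0.06 (days 0 and 2), -0.07 (days 0 and 4) and 0.22 (days 2 and 4). Whether replicate numbers pair the libraries was not settled, and the main fit used no pairing. With a replicate block, 606 genes were called from day 4 to day 6, and the Tet3 change there was -0.025. Leaving out 1 library it was -0.21 (without the second of day 4) to 0.35. Every other change of the 9 genes kept its sign under all settings run. Apart from the fits without 1 library, 302 of these values, called or not, stayed on the same side of the threshold, 30 lost a call and 18 gained one. Depth limits Dnmt3l on day 6, whose level of 2.95 lies near the 3-read level of 2.14.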
